A study of Mus musculus with 21 samples.

Results

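The genes described here are 9 genes of the retinoic acid pathway, out of 20900 gene symbols in the table of expression values. They are the catabolic enzymes Cyp26a1 and Cyp26b1, the receptors Rara, Rarb and Rarg, the binding proteins Crabp1 and Crabp2, the retinaldehyde reductase Dhrs3 and the retinol transporter Stra6. They were picked by symbol, and the set was chosen by the measured rise of Cyp26b1 at 2 h against control. All comparisons of these genes at 2 h against control are therefore given as a description, without a test. All 9 passed the filter on low values (a log2 value above 0 in at least 3 of 21 libraries), as did 14666 genes in all. Cyp26b1 was above that level only in the 18 treated libraries and Rarb in 4 libraries, so both passed only through groups in which they were high. Their differences against control, and those of Rarb that involve 8 h of BMH-21 or 4 h of CX-5461, are therefore also given without a test. Cyp26a1 was above that level in 7 libraries, the 3 controls, the 3 of CX-5461 at 8 h and 1 of CX-5461 at 2 h. It too passed only through groups in which it was high. Its differences against control, and those that involve 8 h of CX-5461, are therefore also given without a test.

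Poly(A) RNA was sequenced from E14 cells, a mouse embryonic stem cell line of the 129 strain, grown in DMEM with fetal bovine serum and leukaemia inhibitory factor (LIF). The cells were plated 1 day ahead, and the medium was then replaced by medium containing BMH-21 or CX-5461, each at 1 µM. Both compounds block RNA polymerase I, which makes the large ribosomal RNAs. RNA was collected at 0 h (the control) and after 2, 4 and 8 h of each inhibitor, which gave 7 groups of 3 libraries. All groups share the cell line, serum and LIF, and 1 control serves both inhibitors. It had no time-matched change of medium, so the effects of inhibitor, of time and of fresh medium cannot be told apart. The labels do not say that replicates came from separate cultures, so p-values measure the spread between these samples, which may be technical.

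Retinol enters cells through STRA6 and is oxidised to retinaldehyde and then to retinoic acid, while DHRS3 returns retinaldehyde to retinol. Retinoic acid is carried by the CRABP proteins, binds nuclear receptors (RARα, RARβ and RARγ, encoded by Rara, Rarb and Rarg) that pair with RXR on DNA, and is degraded by the CYP26 enzymes. In embryonic stem cells retinoic acid is a classical inducer of differentiation, and Cyp26a1 and Rarb are classical direct targets of its receptors.

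The stretches below are shown because RAR and RXR bind pairs of a short half-site, and the 2 classical targets carry such a pair close to their start. The half-site AGGTCA and its variants, which read AGTTCA or GGGTCA or else GGTTCA, were searched on both strands in the 250 bases before each RefSeq start (GRCm38.p6). A direct repeat with 5 bases between occurred in 29 of 32851 windows (0.0883%). The search covered 17 starts of 8 of the 9 genes, and Crabp2 had no entry. It found the repeat at 2 of them, Cyp26a1 (chr19:37697593-37697792, plus strand, ending 16 bases before the start, the repeat lying on the opposite strand) and Rarb (chr14:16575506-16575535, minus strand). Capitals mark the repeat with the bases between.
Cyp26a1: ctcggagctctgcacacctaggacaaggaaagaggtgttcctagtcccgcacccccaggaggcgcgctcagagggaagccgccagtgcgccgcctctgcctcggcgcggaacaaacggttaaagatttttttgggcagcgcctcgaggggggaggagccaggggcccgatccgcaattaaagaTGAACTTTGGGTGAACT
Rarb: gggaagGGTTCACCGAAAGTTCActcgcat
Read on the strand of the half-sites, with these in capitals, the repeats were identical at 15 of 17 bases.
Cyp26a1 repeat: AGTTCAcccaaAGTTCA
Rarb repeat: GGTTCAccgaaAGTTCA
A repeat with 1 base between (0.164% of windows) or with 2 (0.174%) was found at none of the 17 starts. A single half-site, which a repeat also contains, was found in 38.6% of all windows and at Cyp26a1, Rara, Rarb and Rarg, and the window of Cyp26b1 held none. A match is a description of the letters only. The windows follow RefSeq, and GENCODE M21 has a Rarb transcript that starts farther upstream and contains this stretch.

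Whole reads could be recovered from the log2 values, and the libraries held 46604397 to 62812641 reads over the table. At this depth 3 reads correspond to a log2 value between -4.63 and -3.59, and intervals on reads cover counting error only. The authors' scaling factors ran from 0.832 to 1.375, while median-ratio factors computed from the same reads ran from 0.941 to 1.107. Centring each library on its median removed shifts against control of -0.08, -0.15 and -0.21 at 2, 4 and 8 h of BMH-21, and of -0.15, -0.16 and 0.22 at 2, 4 and 8 h of CX-5461. Differences of that size depend on the scaling, and results that do are given under both. All values are log2 RPM (reads of a gene over the deposited effective library size, on the usual RPM scale). A difference is a log2 fold change with its standard error (SE), and adjusted p-values are Benjamini-Hochberg values from limma over 14666 genes, called under 0.05.

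**Figure D1:**
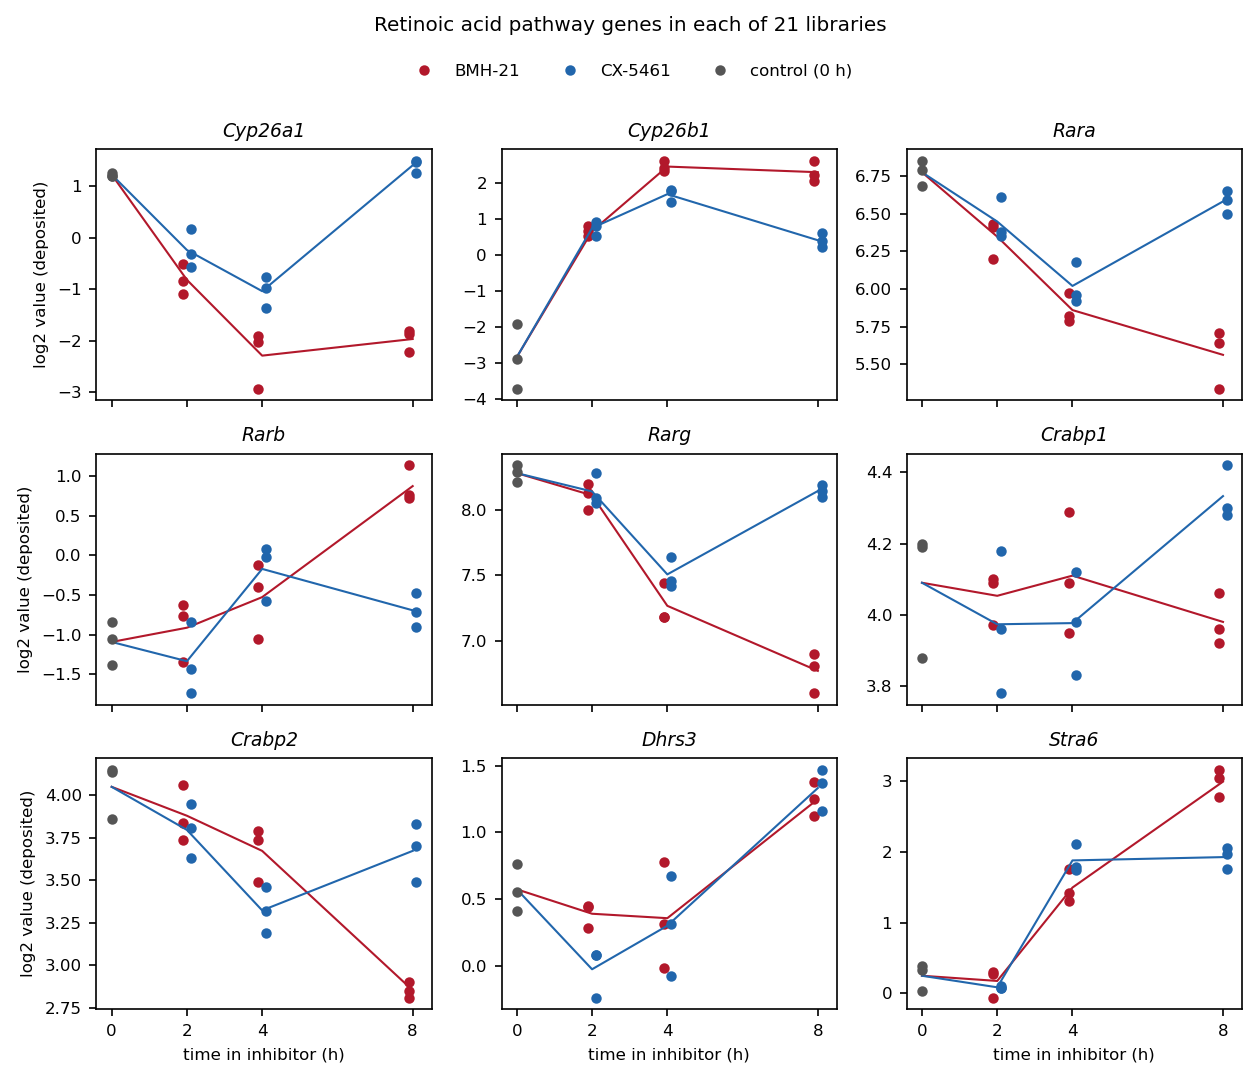
Deposited log2 value (y axis, scaled per panel) of each gene in each of the 21 libraries (points) against hours in inhibitor (x axis), with lines through the group means for BMH-21 (red) and CX-5461 (blue) from the shared control (grey). Cyp26b1 lies above control in all 18 treated libraries, and Cyp26a1 lies below control in all treated libraries but those of CX-5461 at 8 h.

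In control cells the receptor genes Rarg and Rara and the binding protein genes Crabp1 and Crabp2 had the highest levels. Per kilobase of exon (GENCODE M21), the control level was 73.1 RPM for Rarg, 25.1 for Rara, 21.3 for Crabp1, 12.6 for Crabp2, 1.18 for Cyp26a1, 0.511 for Dhrs3, 0.205 for Stra6, 0.0902 for Rarb and 0.03 for Cyp26b1. No 2 neighbours in this order had overlapping libraries. Rara and Crabp1 were closest, with the lowest Rara library at a log2 level per kilobase of 4.56 and the highest Crabp1 library at 4.52. The order changed with treatment. In BMH-21 at 8 h Rarg (25.8) was followed by Crabp1 (19.7), Rara (10.9), Crabp2 (5.47), Stra6 (1.37), Cyp26b1 (0.94), Dhrs3 (0.814), Rarb (0.352) and Cyp26a1 (0.13), and the libraries of Cyp26b1 and Dhrs3 overlapped. In CX-5461 at 8 h Rarg (66.4) was followed by Crabp1 (25.1), Rara (21.9), Crabp2 (9.68), Cyp26a1 (1.34), Dhrs3 (0.863), Stra6 (0.655), Cyp26b1 (0.252) and Rarb (0.118).

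Cyp26b1, on chromosome 6 (84571414 to 84593908, minus strand, GRCm38), encodes an enzyme that oxidises retinoic acid to inactive products. It was close to absent in control cells, with 12, 3 and 6 reads (log2 -1.91, -3.70 and -2.87). After 2 h its log2 values were 0.53, 0.81 and 0.68 in BMH-21 and 0.93, 0.54 and 0.81 in CX-5461. Every 2 h library held at least 68 reads, more than any control library, and the inhibitors' libraries overlapped. The difference against control, on which the set was chosen, was 3.50 (SE 0.21) for BMH-21 and 3.59 (SE 0.21) for CX-5461. As a ratio of summed reads per effective library size this was 10.6 (95% exact counting interval 6.75 to 17.4) and 11.2 (7.16 to 18.3).

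Cyp26b1 stayed high afterwards, to different extents in the 2 inhibitors. In BMH-21 the values were 2.63, 2.42 and 2.35 at 4 h and 2.24, 2.07 and 2.62 at 8 h. In CX-5461 they were 1.48, 1.82 and 1.80 at 4 h and 0.61, 0.24 and 0.41 at 8 h. All these libraries were above all controls, and the BMH-21 libraries were above the CX-5461 libraries at both times. Against control Cyp26b1 was higher by 5.29 (SE 0.21) at 4 h and 5.14 at 8 h of BMH-21, and by 4.52 and 3.24 at 4 and 8 h of CX-5461, given without a test. Ratios of summed reads against the 21 control reads were 36.6 (23.8 to 59.4) and 32.8 (21.4 to 53.3) for BMH-21, and 21.4 (13.8 to 34.8) and 8.87 (5.64 to 14.7) for CX-5461. The variance of Cyp26b1 itself, over all 7 groups, was 2.18 times the moderated variance. Its SD was 0.90 in control and 0.14 to 0.28 in the treated groups, against a moderated SD of 0.261. The SE against control is therefore too small for that spread. Control does not enter the comparisons between inhibitors and between times. For the other 8 genes the ratio of own to moderated variance was 0.747 to 1.02.

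Cyp26a1, the paralogue of Cyp26b1 on chromosome 19 (37697798 to 37701536, plus strand), went the other way. Control values were 1.21, 1.27 and 1.21 (108, 109 and 109 reads). At 2 h they were -0.84, -1.10 and -0.51 in BMH-21 and 0.17, -0.32 and -0.56 in CX-5461, a difference against control of -2.04 (SE 0.29) and -1.46 (SE 0.29), given without a test. All 6 libraries were below all controls, and the inhibitors' libraries overlapped.

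At 4 h Cyp26a1 stood at -1.91, -2.93 and -2.03 in BMH-21 and at -0.98, -0.77 and -1.36 in CX-5461. Against control, without a test, it was lower by 3.52 (SE 0.29) and by 2.26. At 8 h the inhibitors parted, with -1.86, -1.82 and -2.22 in BMH-21 and 1.47, 1.26 and 1.50 in CX-5461. The BMH-21 libraries were below all control and CX-5461 libraries, and the CX-5461 libraries overlapped the control. The 8 h difference, without a test, was -3.19 for BMH-21. For CX-5461 it was 0.18 (SE 0.29), which turned to -0.04 on centring. In reads, BMH-21 at 8 h held 53 in all against 326 in control, a ratio of 0.109 (0.0797 to 0.146), and CX-5461 held 382, a ratio of 1.13 (0.973 to 1.32).

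The more abundant CYP26 transcript therefore differed by group. Per kilobase, Cyp26a1 led Cyp26b1 in control (1.18 against 0.03). At 2 h the libraries of the pair overlapped, at 0.291 and 0.299 in BMH-21 and 0.438 and 0.319 in CX-5461. Cyp26b1 led at 4 h of both inhibitors (1.04 against 0.108 in BMH-21, 0.61 against 0.25 in CX-5461) and at 8 h of BMH-21 (0.94 against 0.13). Cyp26a1 led again at 8 h of CX-5461 (1.34 against 0.252). Libraries of the pair did not overlap in these groups.

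**Figure D2:**
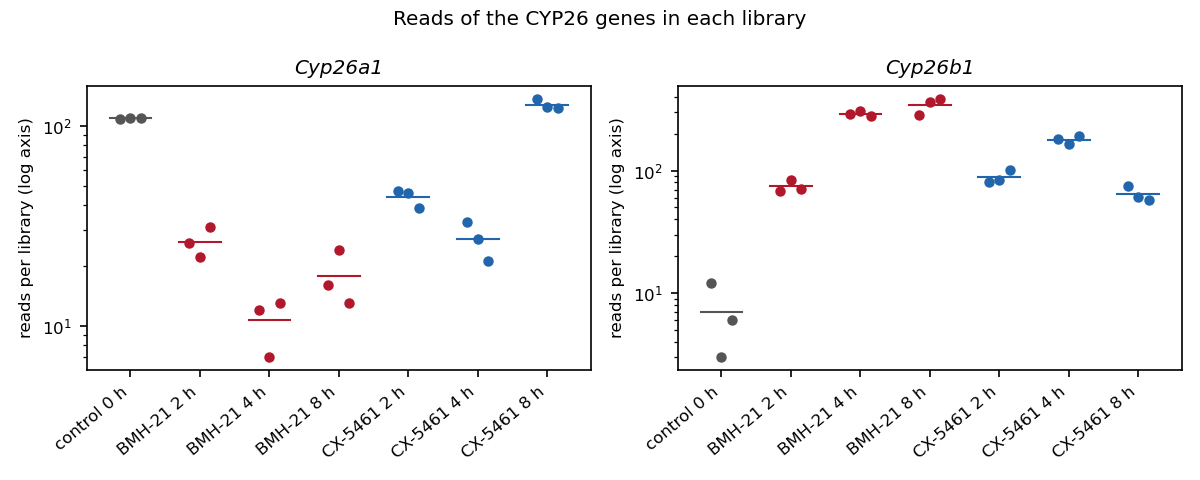
Reads per library (log axis) of Cyp26a1 and Cyp26b1 in the 3 libraries of each group, with a bar at each group's mean. Control libraries hold 108 to 109 reads of Cyp26a1 and 3 to 12 of Cyp26b1, and at 8 h Cyp26a1 is at 13 to 24 reads in BMH-21 and at 122 to 136 in CX-5461.

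Of the receptor genes, Rarg and Rara, which were abundant in control cells, fell together, and Rarb was higher at 8 h of BMH-21. Rarg, on chromosome 15 (102234938 to 102257517, minus strand), had control values of 8.34, 8.29 and 8.21. At 2 h it was at 8.00, 8.20 and 8.13 in BMH-21, just under the control, and at 8.28, 8.05 and 8.09 in CX-5461, overlapping it. At 4 h the values were 7.44, 7.18 and 7.18 in BMH-21 and 7.42, 7.64 and 7.46 in CX-5461, below all controls. At 8 h they were 6.90, 6.60 and 6.81 in BMH-21 and 8.19, 8.10 and 8.14 in CX-5461. The BMH-21 libraries were thus the lowest of the series, and the CX-5461 libraries lay just under the control. Rarg fell by 1.01 (SE 0.10, limma adjusted p = 3.9e-16) and 1.51 (adjusted p = 1.4e-27) at 4 and 8 h of BMH-21, and by 0.78 (adjusted p = 7.9e-11) at 4 h of CX-5461. The difference at 8 h of CX-5461 was -0.14 (adjusted p = 0.28), which was -0.35 and called after centring.

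Rara, on chromosome 11 (98927818 to 98974942, plus strand), followed the same course. Control libraries were at 6.79, 6.85 and 6.68, and at 2 h it stood at 6.20, 6.43 and 6.41 in BMH-21 and at 6.61, 6.38 and 6.35 in CX-5461. The values were 5.97, 5.82 and 5.79 at 4 h and 5.71, 5.34 and 5.64 at 8 h of BMH-21. In CX-5461 they were 5.92, 6.18 and 5.96 at 4 h and 6.65, 6.50 and 6.59 at 8 h. All treated libraries were below all controls, those of CX-5461 at 8 h by little, and in CX-5461 the 8 h libraries were back above those of 4 h. Rara fell by 0.91 (SE 0.11, limma adjusted p = 5.8e-13) and 1.21 (adjusted p = 1.2e-19) at 4 and 8 h of BMH-21 and by 0.75 (adjusted p = 1.2e-09) at 4 h of CX-5461. The difference at 8 h of CX-5461 was -0.20 (adjusted p = 0.12), which was -0.41 after centring and -0.31 with median-ratio factors, both called. Across the 21 centred libraries Rara and Rarg had a Pearson r of 0.962, a description over libraries that share 7 groups.

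Rarb, a receptor gene that retinoic acid itself induces in many cells, was low in control, at -1.06, -1.38 and -0.84 (22, 17 and 26 reads). At 2 h it was at -0.63, -0.76 and -1.35 in BMH-21 and at -0.84, -1.43 and -1.74 in CX-5461, overlapping the control. At 4 h it was at -0.40, -0.12 and -1.06 in BMH-21 and at -0.57, 0.08 and -0.02 in CX-5461. At 8 h it reached 0.77, 0.72 and 1.14 in BMH-21 (102 to 142 reads) and was at -0.90, -0.47 and -0.71 in CX-5461. Only the BMH-21 8 h libraries were all above every library of the other groups. Against control, without a test, the difference of Rarb was 1.97 (SE 0.29) at 8 h of BMH-21, a read ratio of 3.93 (3.01 to 5.19), and 1.24 under quantile normalization. At 4 h of CX-5461 it was 0.92, against 0.20 under quantile normalization and 0.03 with values below 0 set to 0. At 4 h of BMH-21 it was 0.56 as deposited, 0.71 after centring and -0.34 under quantile normalization, and at 8 h of CX-5461 it was 0.40, 0.18 and -1.16 in the same order, so the direction in both depended on the scaling.

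Rarb lies on chromosome 14 (16430839 to 16819156, minus strand), and 1793 of its bases are exonic both in it and in Top2b on the opposite strand. The kit kept the strand, but whether counting used it is not given in the sources used here. Top2b, a DNA topoisomerase, averaged 5.66 in the 3 control libraries (SD 0.09). It rose by 0.32 (limma adjusted p = 0.0072) at 8 h of BMH-21 and by 0.53 (adjusted p = 3.7e-05) at 8 h of CX-5461, where the Rarb libraries overlapped the control. Its part in the Rarb values was not tested. The 2 genes with the direct repeat printed above went in opposite directions at 8 h of BMH-21, Cyp26a1 lower and Rarb higher.

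The cellular retinoic acid binding proteins differed from each other. Crabp2, on chromosome 3 (87948666 to 87953376, plus strand), delivers retinoic acid to the receptors. It was at 4.15, 4.14 and 3.86 in control, at 3.74, 4.06 and 3.84 at 2 h of BMH-21 and at 3.95, 3.63 and 3.81 at 2 h of CX-5461, with overlap. At 4 h it was at 3.79, 3.49 and 3.74 in BMH-21 and at 3.32, 3.46 and 3.19 in CX-5461. At 8 h it was at 2.81, 2.90 and 2.85 in BMH-21 and at 3.70, 3.83 and 3.49 in CX-5461. All 4 h and 8 h libraries were below all controls, with BMH-21 at 8 h lowest. Crabp2 fell by 0.38 (SE 0.12, limma adjusted p = 0.0042) and 1.20 (adjusted p = 7.6e-17) at 4 and 8 h of BMH-21 and by 0.73 (adjusted p = 7e-08) and 0.38 (adjusted p = 0.0056) at 4 and 8 h of CX-5461. The 4 h call for BMH-21 was lost with median-ratio factors (-0.19) and without BMH-21 4 h replicate 2 (-0.29), and the 8 h call for CX-5461 without CX-5461 8 h replicate 3 (-0.29).

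Crabp1, on chromosome 9 (54764748 to 54773110, plus strand), binds retinoic acid in the cytoplasm. It had the narrowest range of group means of the 9 genes, 3.97 to 4.33 on the log2 scale. Control values were 4.20, 4.19 and 3.88, those of 8 h were 3.96, 4.06 and 3.92 in BMH-21 and 4.42, 4.30 and 4.28 in CX-5461. CX-5461 at 8 h was the only group with all libraries above all controls. Differences against control at 4 and 8 h ran from -0.11 to 0.24, and none was called (limma adjusted p = 0.075 to 0.88). Their sign depended on the scaling: at 8 h of BMH-21 the difference was -0.11 (95% interval -0.34 to 0.12) as deposited, 0.10 after centring, and 0.25 and called with median-ratio factors.

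Dhrs3 rose at 8 h in both inhibitors, and Stra6 rose from 4 h in both. Dhrs3, on chromosome 4 (144892827 to 144928209, plus strand), was at 0.55, 0.41 and 0.76 in control. It was at 0.45, 0.44 and 0.28 at 2 h of BMH-21 and at 0.08, 0.08 and -0.24 at 2 h of CX-5461, the last all below control. The values were 0.78, -0.02 and 0.31 at 4 h of BMH-21 and -0.08, 0.67 and 0.31 at 4 h of CX-5461, overlapping control. At 8 h it reached 1.25, 1.12 and 1.38 in BMH-21 and 1.47, 1.16 and 1.37 in CX-5461, above all controls and overlapping between inhibitors. The rise at 8 h was 0.67 (SE 0.21, limma adjusted p = 0.0019) in BMH-21 and 0.76 (adjusted p = 0.0011) in CX-5461. Both rises kept their calls after centring (0.89 and 0.54) and lost them under quantile normalization (0.32 and 0.11).

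Stra6, on chromosome 9 (58063788 to 58153996, plus strand), was at 0.39, 0.03 and 0.33 in control. At 2 h it was at -0.06, 0.28 and 0.31 in BMH-21 and at 0.08, 0.08 and 0.10 in CX-5461, within or near the control range. It was at 1.76, 1.42 and 1.31 at 4 h and 3.04, 2.78 and 3.16 at 8 h of BMH-21. In CX-5461 it was at 1.74, 1.79 and 2.11 at 4 h and 1.76, 2.05 and 1.97 at 8 h. All 4 h and 8 h libraries were above all controls, and the BMH-21 8 h libraries were above all others. The rise was 1.25 (SE 0.17, limma adjusted p = 1.9e-10) and 2.74 (adjusted p = 8.6e-31) at 4 and 8 h of BMH-21, and 1.63 (adjusted p = 2.2e-15) and 1.68 (adjusted p = 6.7e-16) at 4 and 8 h of CX-5461. Ccdc33 overlaps Stra6 on the opposite strand with 0 exonic bases in common and held at most 30 reads in any library.

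Counted over the 9 genes, 2 were called higher and 4 lower at 4 h of BMH-21, where 22.1% and 44.9% of all genes tested were. At 8 h of BMH-21 it was 4 higher and 4 lower, against 24.5% and 56.9% of all genes. At 4 h of CX-5461 it was 3 higher and 4 lower, against 19.8% and 51.2%, and at 8 h of CX-5461 3 higher and 1 lower, against 35.1% and 14.3%. Nothing is read from these counts, since they hold genes given without a test. Cyp26b1 is among the higher genes in all 4 comparisons and Rarb in those at 8 h of BMH-21 and 4 h of CX-5461. Cyp26a1 is among the lower genes in all but 8 h of CX-5461. The median difference of the 9 genes was -0.22, -0.11, -0.27 and 0.24 in these 4 comparisons, and that of all genes -0.21, -0.40, -0.28 and 0.11. The comparisons share the control libraries. With median-ratio factors the share of all calls that were higher went from 32.9% to 47% and from 30.1% to 47.5% at 4 and 8 h of BMH-21, and from 27.9% to 47.7% and from 71.1% to 49.9% at these times of CX-5461.

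**Figure D3:**
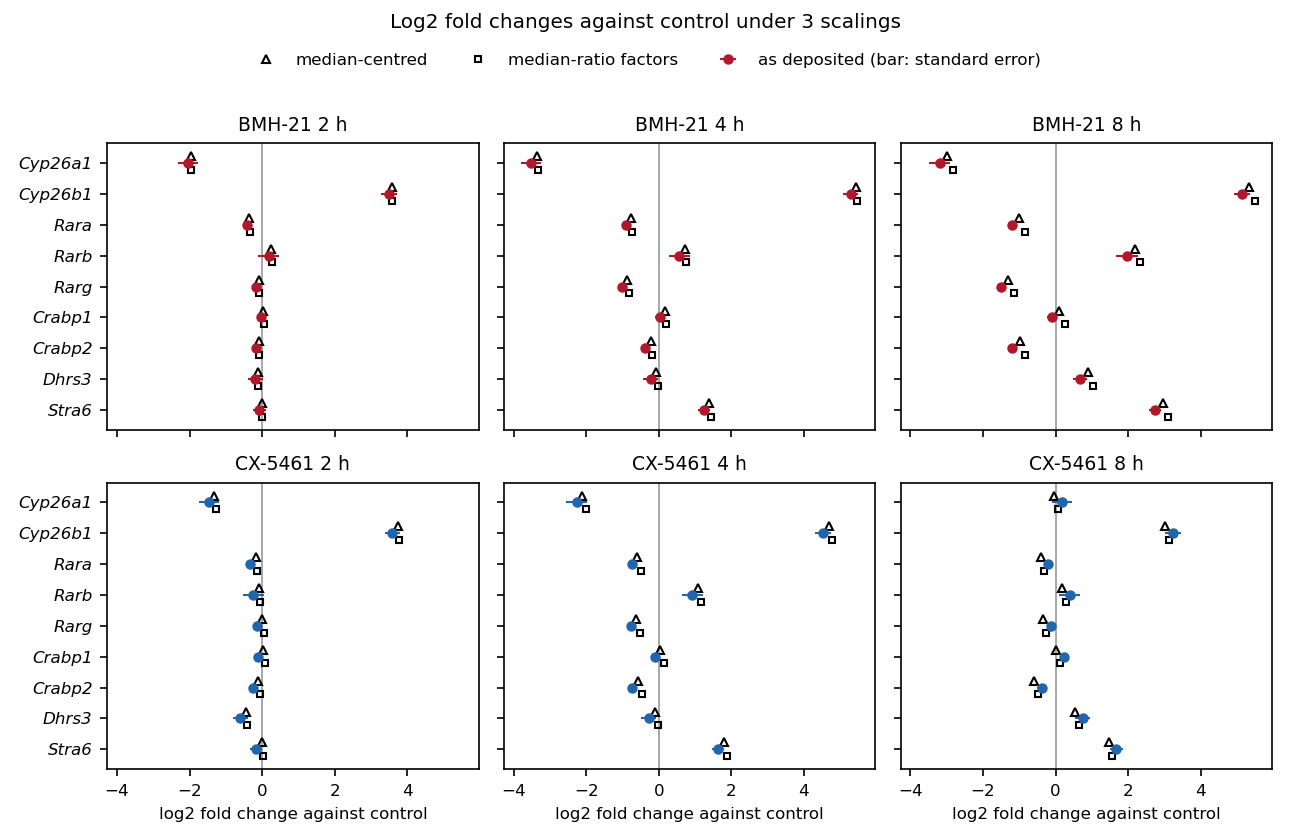
Log2 fold change against control (x axis) of each gene for each inhibitor (rows) and time (columns), as deposited (filled circles, red for BMH-21 and blue for CX-5461, bars 1 standard error), after median centring (triangles) and with median-ratio factors (squares). Cyp26b1 and Stra6 keep their sign under all 3 at 4 and 8 h, and Crabp1 changes sign with the scaling at 8 h of BMH-21.

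Compared directly at the same dose and time, 3 of the 9 genes differed between the inhibitors at 4 h as deposited and 6 under each of the 3 other scalings. At 8 h the count was 8. It holds Rarb and Cyp26a1, given without a test at 8 h, so nothing is read from it. Among all genes, more were called at 8 h than at 4 h, in the shares given below. At 4 h Cyp26a1 was lower in BMH-21 than in CX-5461 by 1.26 on the log2 scale (SE 0.29, limma adjusted p = 0.00044), and Cyp26b1 was higher by 0.77 (SE 0.21, adjusted p = 0.0051) and Crabp2 by 0.35 (SE 0.12, adjusted p = 0.028). That is 2 of 9 higher and 1 lower, against 9.35% and 8.49% of all genes. Median centring raised the number called from 3 to 6, adding Rara (-0.17), Rarg (-0.25) and Stra6 (-0.39). Of all genes called, 52.4% were higher as deposited and 42.2% with median-ratio factors. The Cyp26b1 call was lost without the filter and without the variance trend, and the Crabp2 call under several alternatives, including without BMH-21 4 h replicate 1, BMH-21 4 h replicate 3, CX-5461 4 h replicate 1 or CX-5461 4 h replicate 3.

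At 8 h, 8 of the 9 genes passed the threshold between the inhibitors, a count that holds Rarb and Cyp26a1, given without a test. In BMH-21 3 were higher (Rarb among them) and 5 lower (Cyp26a1 among them), where 12.0% of all genes were higher and 67.2% lower. Rarg was lower by 1.37 on the log2 scale (limma adjusted p = 8.7e-24), Rara by 1.01 (adjusted p = 6e-15) and Crabp2 by 0.82 (adjusted p = 1.6e-09). Cyp26b1 was higher by 1.89 (adjusted p = 5.1e-14) and Stra6 by 1.07 (adjusted p = 2.5e-08). These genes kept their direction and call after centring, at -0.94, -0.58, -0.39, 2.32 and 1.49 in the same order. Without a test, the difference of Rarb was 1.57 as deposited and 2.00 after centring, and that of Cyp26a1 was -3.37 and -2.95. Crabp1 was lower by 0.35 (adjusted p = 0.0045) as deposited and at 0.08 and not called after centring. For Dhrs3 the difference was -0.08 (95% interval -0.49 to 0.33, adjusted p = 0.72) as deposited and 0.39 and called with median-ratio factors.

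Between 4 and 8 h of BMH-21, Stra6, Crabp2, Rarg and Rara moved further from control and Dhrs3 went from the control range to above it, while in CX-5461 Cyp26a1, Cyp26b1, Rara and Rarg moved back toward it. In BMH-21, Stra6 rose by 1.50 (SE 0.17, limma adjusted p = 3.9e-13) and Dhrs3 by 0.89 (adjusted p = 0.00011), and Crabp2 fell by 0.82 (adjusted p = 3.6e-09), Rarg by 0.50 (adjusted p = 2.3e-05) and Rara by 0.30 (adjusted p = 0.015). Rarb was higher at 8 h by 1.41, without a test. With it, that is 3 of 9 higher and 3 lower, against 18.6% and 37.8% of all genes, and nothing is read from that count. The share of all calls that were higher went from 33% to 53% with median-ratio factors. The Rara call was lost in a fit of only these groups and without BMH-21 4 h replicate 1 or BMH-21 8 h replicate 2. In CX-5461, Dhrs3 rose by 1.03 (limma adjusted p = 8.9e-06), Rarg by 0.64 (adjusted p = 8.6e-08) and Rara by 0.55 (adjusted p = 6.1e-06), and Cyp26b1 fell by 1.28 (adjusted p = 1.6e-07). Of these, Dhrs3 moved away from control, and all kept their direction and call after centring (0.66, 0.26, 0.18 and -1.65). Crabp1 (0.36) and Crabp2 (0.35) were also called higher, and both were at or near 0 after centring (-0.02 and -0.03). Cyp26a1 was higher at 8 h by 2.44 (SE 0.29), without a test, and by 2.07 after centring. With it, that is 6 of 9 higher and 1 lower, against 58.8% and 4.85% of all genes, and nothing is read from that count either. After centring 44.7% of the genes called in this last comparison were higher, as against 92.4% as deposited, and for BMH-21 against CX-5461 at 8 h the share went from 15.1% to 43.4%.

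Other genes of the pathway were described from a list of 31, of which 24 were tested. The largest positive differences at 8 h of both inhibitors were those of Rbp2, the intestinal-type retinol binding protein, the retinaldehyde dehydrogenases Aldh1a1 and Aldh1a3, which make retinoic acid, and Adh7, an alcohol dehydrogenase that acts on retinol. These 4 genes passed the filter only through treated groups in which they were high, so their differences are given without a test, and nothing is read from counts that hold them. At 2 h of BMH-21, 2 of the 24 were called higher and 0 lower (all genes 8.48% and 11.2%), and at 2 h of CX-5461 2 higher and 4 lower (7.45% and 20.5%). At 4 h it was 7 higher and 7 lower in BMH-21 (22.1% and 44.9%) and 7 higher and 9 lower in CX-5461 (19.8% and 51.2%). At 8 h it was 10 and 10 in BMH-21 (24.5% and 56.9%) and 10 and 0 in CX-5461 (35.1% and 14.3%). With median centring the last comparison gave 7 higher and 9 lower in limma, and an unadjusted p under 0.05 gave 2 lower in place of 0. At 2 h of BMH-21 an unadjusted p under 0.05 gave 1 lower in place of 0, and the share of all calls that were higher went from 43% to 53.8% with median-ratio factors, and from 26.7% to 59.4% at 2 h of CX-5461.

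Rbp2 was near 0 in control, with 0 to 2 reads per library and 4 in all, and reached 212 to 328 reads per library at 8 h of BMH-21 and 52 to 83 at 8 h of CX-5461. The read ratio against control was 3.98 (95% exact counting interval 1.28 to 16.4), 22.3 (8.46 to 83.5) and 135 (52.6 to 498) at 2, 4 and 8 h of BMH-21. For CX-5461 it was 4.63 (1.56 to 18.6), 21.8 (8.28 to 81.7) and 47.5 (18.3 to 176). All libraries of both inhibitors were above all controls at each of the 3 times.

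Aldh1a1 was higher than control by 1.23, 2.73 and 3.28 on the log2 scale at 2, 4 and 8 h of BMH-21 and by 1.01, 2.13 and 2.15 in CX-5461. Its 2 h libraries overlapped the control in both inhibitors, and those of 4 and 8 h were above it. It held 3 to 9 reads per control library and 72 to 94 at 8 h of BMH-21. Aldh1a3, of the same family, was higher by 2.13 and 2.96 at 4 and 8 h of BMH-21 and by 2.19 and 2.47 in CX-5461, with all libraries above all controls. Aldh1a2, the main enzyme of embryonic retinoic acid synthesis, was called only at 4 h of CX-5461, where it fell by 0.50 (limma adjusted p = 0.0091). Adh7 was higher by 2.41 and 2.40 at 8 h of BMH-21 and CX-5461, above all controls in both.

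Among the oxidoreductases of retinol and retinaldehyde, Rdh12 rose at 4 and 8 h of both inhibitors (0.47 and 0.73 in BMH-21, 0.39 and 0.84 in CX-5461). Its 4 h libraries overlapped the control in both (limma adjusted p = 0.018 in BMH-21 and 0.048 in CX-5461). Rdh11 fell by 1.04 at 4 h of BMH-21 and by 0.86 at 4 h of CX-5461. Rbp4, the retinol carrier of serum, fell by 1.94 at 8 h of BMH-21 (limma adjusted p = 2.7e-16) and was not called at 8 h of CX-5461 (-0.44). Of the RXR partners, Rxra rose by 1.07 and 0.92 at 8 h of BMH-21 and CX-5461, and Rxrg fell by 1.02 at 8 h of BMH-21. Of the cofactors, the coactivator Ncoa1 rose by 1.62 and 1.04 at 8 h of BMH-21 and CX-5461, while Ncoa3 (-1.06) and the corepressor Ncor1 (-0.68) fell at 8 h of BMH-21. Stra6l, Lrat, Rdh5, Rdh16, Dhrs9, Adh1 and Cyp26c1, the remaining CYP26 gene, were not among the genes tested.

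Of 20 textbook retinoic acid targets 7 were tested, and the Hox genes, Cdx1 and Foxa1 were not among them. They were mixed in direction. At 2 h 1 was called higher and 2 lower in each inhibitor, where 8.48% and 11.2% of all genes were in BMH-21 and 7.45% and 20.5% in CX-5461. At 4 h it was 2 and 1 in BMH-21 (all genes 22.1% and 44.9%) and 2 and 2 in CX-5461 (19.8% and 51.2%). At 8 h it was 3 and 2 in BMH-21 (24.5% and 56.9%) and 4 and 1 in CX-5461 (35.1% and 14.3%). The counts at 4 and 8 h hold Meis2 among the lower genes, which is given without a test, so nothing is read from them. Zfp703, a transcriptional repressor, rose by 1.61, 3.23 and 3.30 at 2, 4 and 8 h of BMH-21 and by 1.79, 2.63 and 1.63 in CX-5461 (limma adjusted p = 1.4e-20 or below). Tgm2, a transglutaminase, rose by 2.17 and 3.75 at 4 and 8 h of BMH-21 and by 1.90 and 2.06 in CX-5461. Bhlhe40 fell by 0.73 at 2 h of both inhibitors and rose at 8 h, by 2.14 in BMH-21 and 1.76 in CX-5461. The homeobox gene Meis2 was above the filter level in 11 libraries, none of them at 8 h, so it passed only through groups in which it was high. Without a test, it was lower than control by 2.50 and 1.80 at 8 h of BMH-21 and CX-5461. Nrip1, a corepressor, fell by 1.01 and 0.52 at 2 h of BMH-21 and CX-5461. Stra8 was not called at any time, with differences from -0.09 to 0.16.

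**Figure D4:**
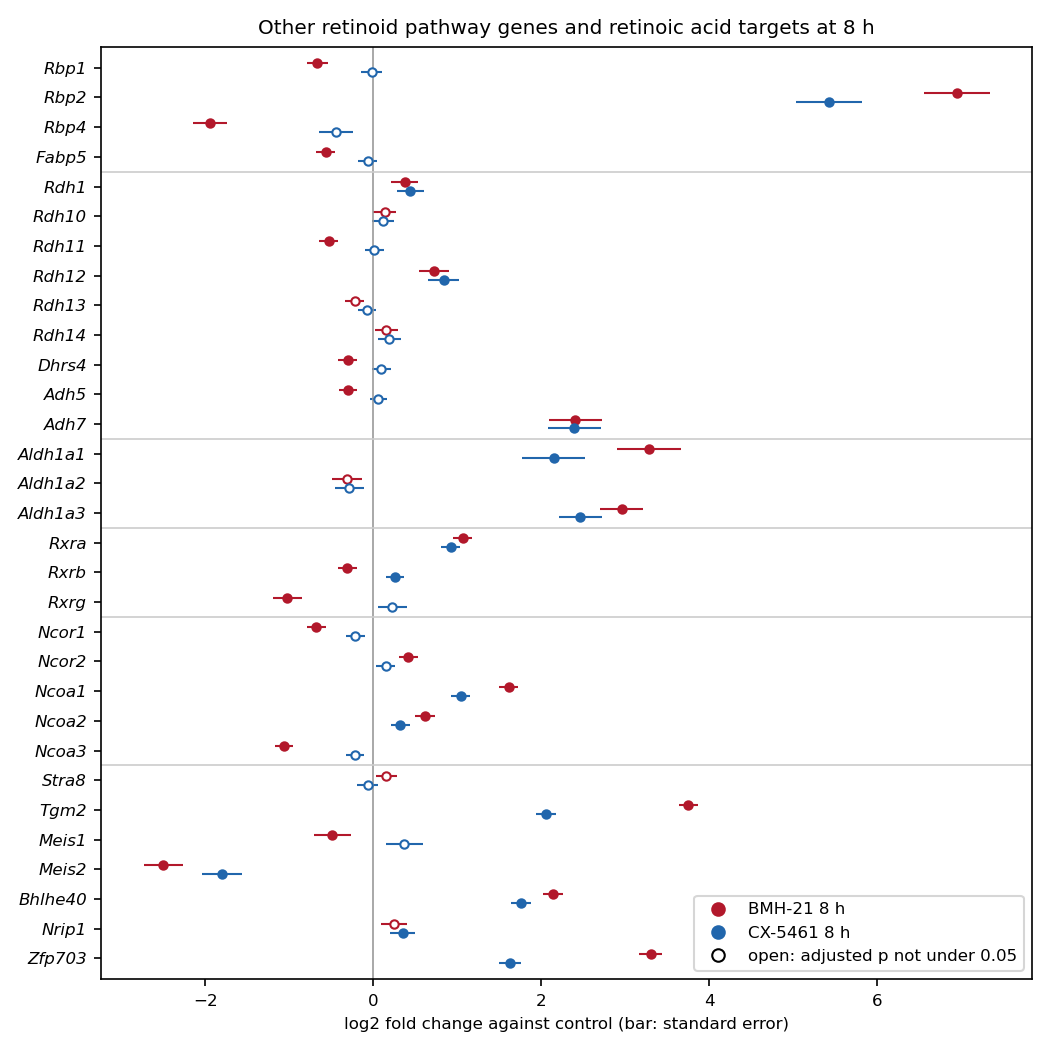
Log2 fold change against control at 8 h (x axis, bars 1 standard error) of the other retinoid pathway genes and of retinoic acid targets (rows, grouped by role between grey lines) for BMH-21 (red) and CX-5461 (blue); open circles did not pass the threshold. Rbp2 shows the largest rise in both inhibitors (6.95 and 5.43), and Meis2 the largest fall (-2.50 and -1.80). Rbp2, Aldh1a1, Aldh1a3, Adh7 and Meis2 are given without a test, and their filled circles are not read as calls.

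Markers of embryonic stem cells were all present, with a summed level of 5080 to 5890 RPM over 7 genes in control. The sum was 2310 to 2430 at 8 h of BMH-21 and 4320 to 4660 at 8 h of CX-5461. All 7 fell at 4 h of BMH-21 (44.9% of all genes were lower) and of CX-5461 (51.2%) and at 8 h of BMH-21 (56.9%), and 5 fell at 8 h of CX-5461 (14.3%). Sums for other cell types were small in control: 16.9 to 20.1 for 6 primitive endoderm genes, 66.5 to 72.2 for 5 neural progenitor genes, 6.29 to 8.07 for 4 mesendoderm genes, 3.93 to 4.72 for 4 trophoblast genes and 9.09 to 11.5 for 5 fibroblast genes. At 8 h of BMH-21 they were 18.2 to 22.1, 43.2 to 54.6, 3.89 to 4.3, 9.76 to 11.3 and 31 to 37.8 in the same order, and at 8 h of CX-5461 21.4 to 22.4, 91.7 to 101, 11 to 13.2, 8.21 to 9.95 and 22.2 to 24.5. A sum can rest on 1 abundant gene. From control to 8 h of BMH-21 the mean log2 value of the fibroblast gene Col1a1 went from 3.15 to 5.01 and that of Col1a2 from 0.26 to 0.32. Col3a1 went from -2.33 to -3.55 and Dcn from -1.83 to -3.66, and Lum held at most 2 reads per library in these groups. Of these 5 genes only Col1a1 and Col1a2 passed the filter. No marker was at 0 reads in all libraries of a group. Their part in the results was not tested, and in bulk RNA fewer cells of a type and less RNA per cell cannot be told apart.

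The genes whose centred values over the 21 libraries were most like those of Cyp26b1 were 9230114K14Rik and Ccng1 (Pearson r 0.982 for each), Ddit4l (0.981), Cdkn2b (0.979) and Fam212b (0.978). Those most like Cyp26a1 were Gbx2 (0.96), Preb (0.959), Chrm4 (0.959), Erbb2 (0.956) and Amigo1 (0.954). Gbx2, a homeobox gene, had group means, as deposited, of 4.86 in control, 2.50 at 8 h of BMH-21 and 4.61 at 8 h of CX-5461. Cyp26a1 and Cyp26b1 had r = -0.842 with each other, and Rarg and Stra6 r = -0.927. These are descriptions over libraries that share 7 groups and 1 scaling.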

How the data were processed

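The table holds 21 libraries and 20900 gene symbols, with 0 columns of no sample. Its values are log2 expression as deposited by the authors. Per the submitters' processing notes, Trim Galore 0.5.0, TopHat2 2.1.1, R 4.0.5, DESeq2 1.30.1, edgeR 3.32.1, limma 3.46.0 and build mm10 were used; roles, counting program and strand setting are not given in the sources used here. Every deposited value gave whole reads within 1.8e-08 as reads plus 0.5 over an effective library size; the origin of its factors is not stated.

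Here limma 3.58.1 (R 4.3.3) was fitted to all 21 libraries with 7 group means, eBayes with a trend, two-sided tests and Benjamini-Hochberg adjustment over 14666 genes at 0.05. The variance prior had 111.5 degrees of freedom and the replicates 14. Fold changes include the offset of 0.5 reads, which by itself shrinks those of low genes. For Cyp26b1 they were still above the ratios of summed reads, as at 4 h of BMH-21 (39.1 against 36.6). Replicates of a group differed beyond sampling noise (chi-square per degree of freedom 2.58 to 26.01 over 21 pairs). Exon lengths came from GENCODE M21 (96% of symbols matched) and promoters from RefSeq.

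The genes, lists and tests were chosen with earlier results of these data known. Named genes are the 9 genes, list genes called in at least 1 comparison with control or at the extremes of their role, and the 5 genes most like Cyp26b1 and Cyp26a1. The comparison of the 4 to 8 h change between inhibitors was chosen after seeing the data. Alternatives were filters, scalings, a floor, an offset of 5 reads, variance models, voom weights, fits of only the groups compared, a replicate block and leaving out each replicate. Figures used matplotlib 3.10.9.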

Additional observations from a re-analysis of the deposited data

Results flagged for a closer look

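Differences between the inhibitors and between times that passed the threshold are gathered here, on the log2 scale, each tested in the limma fit. Those of Rarb rest on the BMH-21 8 h libraries through which it passed the filter, and are a description. The same holds for those of Cyp26a1 that involve the CX-5461 8 h libraries. BMH-21 minus CX-5461 at 4 h was -1.26 for Cyp26a1, 0.77 for Cyp26b1 and 0.35 for Crabp2. At 8 h it was -3.37 for Cyp26a1, 1.89 for Cyp26b1, -1.01 for Rara, 1.57 for Rarb, -1.37 for Rarg, -0.35 for Crabp1, -0.82 for Crabp2 and 1.07 for Stra6. The effect at 8 h differed from that at 4 h in BMH-21 for Rara (-0.30), Rarb (1.41), Rarg (-0.50), Crabp2 (-0.82), Dhrs3 (0.89) and Stra6 (1.50). In CX-5461 it differed for Cyp26a1 (2.44), Cyp26b1 (-1.28), Rara (0.55), Rarg (0.64), Crabp1 (0.36), Crabp2 (0.35) and Dhrs3 (1.03).

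The change from 4 to 8 h was itself compared between the inhibitors, a test chosen after seeing the data. BMH-21 minus CX-5461 was 1.12 for Cyp26b1 (limma adjusted p = 0.00067), -0.85 for Rara (adjusted p = 1e-06) and -1.13 for Rarg (adjusted p = 8e-11). Without a test, it was -2.12 for Cyp26a1 and 1.93 for Rarb. It was -0.49 for Crabp1 (adjusted p = 0.0068), -1.17 for Crabp2 (adjusted p = 4.1e-09) and 1.45 for Stra6 (adjusted p = 1.9e-07). All these values are as deposited only, and they depend on the scaling. After centring, the change of Crabp1 from 4 to 8 h was -0.07 in BMH-21 and -0.02 in CX-5461, against -0.13 and 0.36 as deposited. That of Rara was -0.23 and 0.18, against -0.30 and 0.55 as deposited. For Dhrs3 the difference between the inhibitors in this change was -0.14 (SE 0.29, limma adjusted p = 0.68).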

How the results depend on the processing

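Low reads (3 to 12 per control library for Cyp26b1) and the scaling limit these results. With another offset, normalization or floor the 2 h difference of Cyp26b1 was 2.78 and 2.86 (BMH-21, CX-5461; offset of 5 reads), 2.39 and 2.56 (quantile normalization) and 0.67 and 0.76 (values below 0 set to 0). For values that reversed and counts that moved, the cause was not tested. Median centring gave for Crabp1 0.103 and 0.0449 (BMH-21 8 h, CX-5461 4 h against control), 0.0763 (BMH-21 against CX-5461, 8 h) and -0.0186 (CX-5461, 8 against 4 h), for Crabp2 -0.0251 and Stra6 -0.328 (CX-5461, 8 against 4 h), for Cyp26a1 -0.0361 (CX-5461 8 h) and for Dhrs3 0.345 (BMH-21 against CX-5461, 8 h). Median-ratio factors gave for Crabp1 in the same 4 comparisons 0.248, 0.137, 0.121 and -0.0102 and 0.0437 for BMH-21 (8 against 4 h), for Crabp2 -0.0167, Stra6 -0.319, Cyp26b1 0.0205 (BMH-21, 8 against 4 h) and Dhrs3 -0.0133 and 0.390 (BMH-21 against CX-5461, 4 and 8 h). Quantile normalization gave for Crabp1 in the same 4 comparisons 0.0662, 0.0069, 0.0843 and -0.0250 and at CX-5461 8 h -0.0181, for Crabp2 -0.0575, Stra6 -0.392, Cyp26a1 -0.434, Dhrs3 0.217, and Rarb -0.336 (BMH-21 4 h) and -1.16 (CX-5461 8 h).

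Genes called between the inhibitors at 4 h numbered 3 as reported, 6 under each of the 3 scalings and 1 with no filter, no trend or the floor. Pathway genes called at 2 h of BMH-21 were 2, and 8, 8 and 6 (centring, median-ratio, quantile), 1 (stricter filter) and 0 (floor, or only the groups compared); at 2 h of CX-5461 6, and 3 (quantile); at 8 h of CX-5461 10, and 16 (centring) and 18 (quantile). Targets called were 9, 8 and 9 with no filter (BMH-21 4 h, BMH-21 8 h, CX-5461 4 h) and 5 with quantile normalization (BMH-21 4 h).

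Leaving out 1 library, counts ran from 1 to 2 and 2 to 8 for the pathway genes (BMH-21 2 h, CX-5461 2 h) and from 3 to 5 for targets (BMH-21 4 h). Crabp1 at BMH-21 4 h ran from -0.0820 to 0.103, Dhrs3 between inhibitors at 4 h from -0.157 to 0.241, and Stra6 in CX-5461 (8 against 4 h) from -0.0237 to 0.160. Same-numbered libraries did not pair: the correlation of their deviations was -0.25 to 0.109 over 63 pairs, and 4 of 21 libraries correlated best with their own number. With the number as a replicate block 6, 8, 7 and 4 of the 9 genes were called at BMH-21 4 h, BMH-21 8 h, CX-5461 4 h and CX-5461 8 h, and no call on the 9 genes changed. Over all alternatives, 1380 recomputed values for the 9 genes and 336 counts stayed on their side of the threshold or within the spread, 29 values became called and 24 lost their call without changing direction, 35 values reversed, and 18 values and 24 counts moved.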
